A study of Arabidopsis thaliana with 6 samples.

Results

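Transcript levels of 10 regulators of light- and shade-dependent growth were compared between dexamethasone-treated (DEX) and mock-treated Arabidopsis thaliana seedlings. The genes were taken by gene identifier from a given list, not by their measured values. They were PIF1 (AT2G20180), PIF3 (AT1G09530), PIF4 (AT2G43010), PIF5 (AT3G59060), PIF7 (AT5G61270), HFR1 (AT1G02340), PAR1 (AT2G42870), ATHB2 (AT4G16780), PRE1 (AT5G39860) and HBI1 (AT2G18300), 10 of the 38194 loci in the count files, and all 10 passed the filter on low counts that left 21934 genes. The labels describe every sample as 12-day-old seedlings of a 35S:GR-TCP5 line, grown at 22 °C with 14 h of light and 10 h of dark. TCP5 (AT5G60970) belongs to the CIN class of TCP transcription factors. The line makes it from the constitutive 35S promoter as a fusion with a glucocorticoid receptor domain (GR), and such fusions enter the nucleus when DEX is given. The DEX group received 10 mM dexamethasone, 0.1% ethanol and 0.015% silwet-L77 for 4 h, and the mock group the same solution without dexamethasone. The dose is as labelled, and its unit is in doubt, since this treatment is usually made with micromolar solutions. Plants without the construct were not analysed here, so effects of dexamethasone itself and of TCP5 cannot be told apart.

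Each group held 3 libraries of RNA sequencing, with 33428836 to 76859163 exon counts each. Replicates 1 and 2 of both groups share a date-like code and lane 1 in their labels and are called the first run, and replicate 3 of both groups carries a later code and lane 7 and is called the second run. The labels do not say whether replicates were separate cultures, so p-values measure only the spread between these libraries. TCP5 itself was at 233, 263 and 964 CPM (exon counts scaled to a common library size) in DEX replicates 1 to 3 and at 323, 296 and 1177 CPM in mock replicates 1 to 3. Its transcript was thus present in every library, which checks the construct no further, since the native gene is counted with it. TCP5 stood lower with DEX in both runs without overlap, as did 17.8% of all genes tested. Its log2 fold change of −0.31 ± 0.10 did not pass in edgeR (adjusted p = 0.152), whereas DESeq2 called it (adjusted p = 0.0189). Its level was 3.85-fold higher in the second run than in the first. Leaf markers were high in all libraries (21994 to 26901 CPM summed over 5 genes), and 3 flower markers summed to at most 1.35 CPM. Root markers differed by run. Without the abundant PYK10, the other 11 summed to 1.08 to 2.17 CPM in the first run, where 4 to 7 of the 12 markers were at 0, and to 81.1 CPM with DEX and 165 CPM with mock in the second run. PYK10 (AT3G09260), a beta-glucosidase of roots, was at 365, 301 and 1124 CPM in DEX replicates 1 to 3 and at 556, 716 and 3105 CPM in mock replicates 1 to 3. It too was lower with DEX in both runs without overlap, a pattern of 17.8% of all genes tested. Its log2 fold change was −1.11 ± 0.17 (adjusted p = 0.0118), and it was the 1 of 6 tested root markers that fell, while 0 rose. Its call ended without DEX replicate 2 (adjusted p = 0.0699), DEX replicate 3 (0.0600) or mock replicate 2 (0.0657). The part of root tissue in the DEX results was not tested. In such bulk samples, fewer cells of a type and less RNA per cell cannot be told apart.

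PIFs (phytochrome-interacting factors) are basic helix-loop-helix (bHLH) transcription factors that promote elongation. Phytochromes in red light cause most of them to be broken down or inactivated, and shade or darkness relieves this. They bind the G-box (CACGTG) and a related element, the PBE-box (CATGTG). HFR1 and PAR1 are helix-loop-helix proteins that bind PIFs and hold them off DNA, and ATHB2 is a homeodomain-leucine zipper factor known for its rapid induction by shade. PRE1 and HBI1 act on elongation with brassinosteroid and gibberellin signals. PRE1 is a small protein that does not bind DNA and releases bHLH activators such as HBI1 from their inhibitors. TCP5 has been reported to bind the PIF4 promoter and to raise PIF4 activity in warm-grown plants, so the comparison asks whether these genes respond when TCP5 is released into the nucleus.

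After 4 h of DEX, 0 of the 10 genes passed the test over all genes (edgeR quasi-likelihood test, adjusted p under 0.05), where 4.67% of all genes tested passed. PIF1 came closest, with 1.31-fold higher levels. At an unadjusted p under 0.05, 4 of the 10 stood higher with DEX (PIF1, PIF7, PAR1 and PRE1) and 0 lower, against 7.19% and 11.8% of all genes. The median log2 fold change was 0.17 over the 10 genes and 0.0044 over all genes tested. DESeq2 called 1 of the 10, PIF1, where it called 9.60% of all genes with an adjusted p, and limma-voom called 0, where it called 5.16%. Values below are CPM after TMM scaling, fold changes are DEX over mock with their standard error (SE), and intervals cover 95%.

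**Figure D1:**
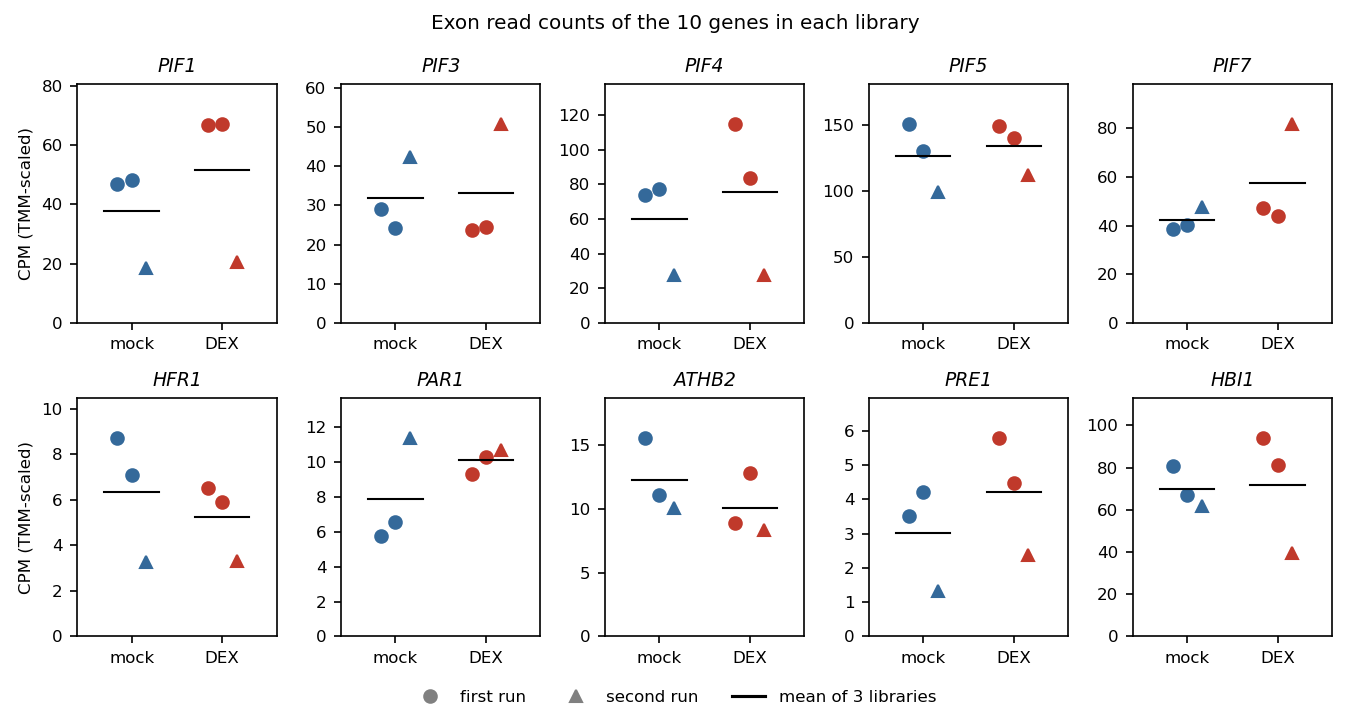
Levels of the 10 genes in each library, in CPM on linear axes that start at 0; circles are libraries of the first run, triangles those of the second run, and lines the means of 3 libraries. For PIF1 both DEX circles (66.8 and 67.0 CPM) lie above both mock circles (46.8 and 48.3 CPM), whereas the triangles are close together and far lower (20.6 and 18.4 CPM).

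PIF1, which restrains seed germination and chlorophyll synthesis in the dark, was at 66.8, 67.0 and 20.6 CPM in DEX replicates 1, 2 and 3. In mock replicates 1, 2 and 3 it was at 46.8, 48.3 and 18.4 CPM. Within each run every DEX library was above every mock library, with a much smaller gap in the second run. The log2 fold change was 0.39 ± 0.09 (SE; interval 0.17 to 0.61; adjusted p = 0.0571). PIF1 passed with DESeq2 (adjusted p = 0.00738), without a filter on low counts (0.0459), in the first run alone (0.0414), without DEX replicate 3 (0.0463) and without mock replicate 3 (0.0474). The last 3 of these are a single comparison, since leaving out either second-run library leaves only the first run to inform the DEX effect. A block for the replicate number gave an adjusted p of 0.120. PIF1 overlaps AT2G20170 on the opposite strand, and that locus had 0 exon counts in every library.

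PIF7, the PIF with a leading part in the shade response, was at 47.4, 43.8 and 81.7 CPM in DEX replicates 1 to 3. It was at 38.4, 40.3 and 47.6 CPM in mock replicates 1 to 3. Every DEX library was above the mock libraries of its run, and the gap was wider in the second run, where the fold was 1.72 against 1.16 in the first. PIF7 had a log2 fold change of 0.40 ± 0.12 (interval 0.11 to 0.68; adjusted p = 0.125), and the difference between runs did not pass (interaction adjusted p = 0.696, unadjusted p = 0.0141). PIF7 overlaps AT5G61260 on the opposite strand, which reached at most 1.65 CPM.

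PIF4, the main PIF of elongation in warmth, was at 115, 83.8 and 27.5 CPM in DEX replicates 1 to 3 and at 74.0, 77.2 and 27.9 CPM in mock replicates 1 to 3. In the first run both DEX libraries were above both mock libraries, and in the second run the 2 libraries were nearly equal, with DEX the lower. For PIF4 the log2 fold change was 0.26 ± 0.14, with an interval of −0.07 to 0.59 (adjusted p = 0.379). The interval leaves room for anything from slightly lower to 1.50-fold higher levels. The log2 estimate moved to 0.08 without DEX replicate 1 and to 0.36 without DEX replicate 2. Of the motifs searched in the 1000 bases upstream of the PIF4 start, on both strands, the GTGGNCC core known for CIN-class TCPs occurred once, 366 bases before the annotated start. GTGGNCC occurred in 13.2% of 27443 upstream windows of that length. The stretch is shown because it is the sole place in that window where these letters occur. It lies at chr2:17885689-17885775 on the plus strand of TAIR10.1 (RefSeq), with the core in capitals and 40 bases on either side.
PIF4 upstream: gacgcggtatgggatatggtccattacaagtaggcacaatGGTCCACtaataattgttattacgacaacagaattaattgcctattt
The count files carry no coordinates and the labels name no build, so sequences were found by gene identifier in the RefSeq annotation.

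PIF5, the closest relative of PIF4 in function, was the most abundant of the 10 genes. It was at 149, 140 and 112 CPM in DEX replicates 1 to 3 and at 151, 131 and 99.6 CPM in mock replicates 1 to 3. DEX and mock libraries overlapped in the first run. Its log2 fold change was 0.09 ± 0.10 (interval −0.14 to 0.31; adjusted p = 0.699), so a change above 1.24-fold in either direction lies outside the interval. Its upstream sequence nonetheless held more GTGGNCC matches than that of any other of the 10 genes, with 3 between 354 and 398 bases before the start. At least 3 matches in 1000 bases occurred in 0.233% of all upstream windows. The stretch at chr3:21831151-21831281, written on the minus strand as for the gene, has the 3 cores in capitals. Its distal end overlaps the noncoding locus AT3G09185.
PIF5 upstream: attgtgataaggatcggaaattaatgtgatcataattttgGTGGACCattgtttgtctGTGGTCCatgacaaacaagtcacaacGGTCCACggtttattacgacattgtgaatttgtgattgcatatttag
PIF5 was also the single member with a G-box in the last 250 bases before its start, an element present in 6.49% of such windows. A match is a description of the letters and shows no binding.

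PIF3, which acts in seedling greening, was at 23.8, 24.6 and 50.7 CPM in DEX replicates 1 to 3. It was at 29.1, 24.3 and 42.4 CPM in mock replicates 1 to 3. The groups overlapped in the first run, and the log2 fold change was −0.01 ± 0.12 (interval −0.28 to 0.26; adjusted p = 0.976).

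**Figure D2:**
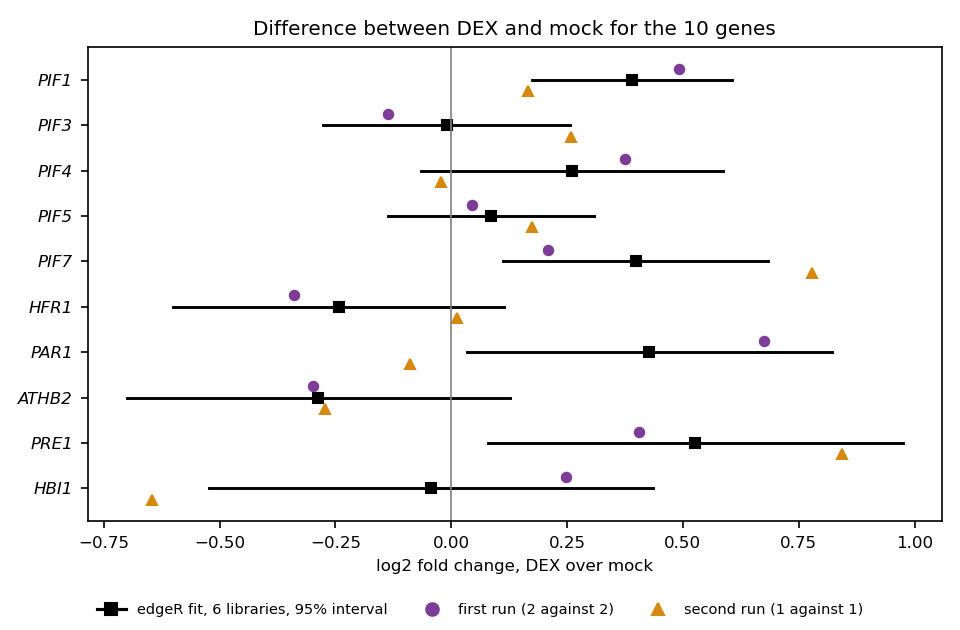
Log2 fold change of DEX over mock for each gene; squares with lines are the edgeR estimates with 95% intervals, circles the first run (2 libraries against 2) and triangles the second run (1 against 1). The intervals of PIF1, PIF7, PAR1 and PRE1 lie above 0, and the run values lie on opposite sides of 0 for PIF3, PIF4, HFR1, PAR1 and HBI1.

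Of the helix-loop-helix inhibitors of the PIFs, PAR1 stood higher with DEX in the first run, and HFR1 lower. PAR1 was at 9.34, 10.3 and 10.7 CPM in DEX replicates 1 to 3 and at 5.75, 6.55 and 11.4 CPM in mock replicates 1 to 3. Both DEX libraries of the first run lay above both mock libraries, 1.60-fold on average, and in the second run DEX was the lower. Its log2 fold change was 0.43 ± 0.17 (interval 0.03 to 0.82; adjusted p = 0.225). The difference between runs had an unadjusted p of 0.0191 and did not pass (interaction adjusted p = 0.715). HFR1 was at 6.54, 5.91 and 3.32 CPM with DEX and at 8.73, 7.08 and 3.29 CPM with mock, in replicates 1 to 3. Both first-run DEX libraries were the lower, and the second-run pair was level. Its log2 fold change was −0.24 ± 0.16 (interval −0.60 to 0.12; adjusted p = 0.463).

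ATHB2, the shade-induced homeodomain gene, was at 8.90, 12.8 and 8.35 CPM in DEX replicates 1 to 3. It was at 15.5, 11.1 and 10.1 CPM in mock replicates 1 to 3. DEX replicate 2 exceeded mock replicate 2, so the groups overlapped in the first run. The log2 fold change of −0.29 ± 0.18 did not pass (interval −0.70 to 0.13; adjusted p = 0.451). It was −0.30 in the first run and −0.27 in the second, but it moved to −0.13 without mock replicate 1, to −0.14 without DEX replicate 1 and to −0.45 without DEX replicate 2.

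PRE1 had the largest estimate of the 10 genes and the lowest level. It was at 5.80, 4.48 and 2.37 CPM in DEX replicates 1 to 3 and at 3.51, 4.22 and 1.32 CPM in mock replicates 1 to 3. DEX was the higher in both runs without overlap, which held for PIF1, PIF7 and PRE1, 3 of the 10 genes, and for 14.7% of all genes tested. The log2 fold change was 0.53 ± 0.20 (interval 0.08 to 0.98; adjusted p = 0.190). The second-run values rest on 80 counts with DEX and 41 with mock, the fewest of any member. PRE1 was the single member with a GTGGNCC match in the last 250 bases upstream, 4 bases before the annotated start, against 4.61% of all such windows. That window is shown for this match, in capitals. It lies at chr5:15957118-15957367, plus strand.
PRE1 upstream: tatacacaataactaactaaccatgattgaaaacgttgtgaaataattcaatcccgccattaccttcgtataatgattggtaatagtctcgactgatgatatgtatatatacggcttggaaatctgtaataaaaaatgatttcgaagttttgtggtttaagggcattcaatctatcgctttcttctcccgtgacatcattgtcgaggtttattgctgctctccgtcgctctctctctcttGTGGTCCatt
Over 1000 bases, 3 of the 10 genes held GTGGNCC (PIF4, PIF5 and PRE1), 3 the G-box (PIF5, HFR1 and PAR1; 14.8% of all windows) and 6 the PBE-box (37.7% of all windows).

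HBI1, the bHLH activator that PRE1 sets free, was higher with DEX in the first run and lower in the second. It was at 94.2, 81.1 and 39.4 CPM in DEX replicates 1 to 3 and at 80.6, 67.2 and 61.7 CPM in mock replicates 1 to 3. Both DEX libraries of the first run lay above both mock libraries, and in the second run DEX was at 0.639 of mock. Over all libraries the log2 fold change was −0.04 ± 0.20 (interval −0.52 to 0.44; adjusted p = 0.935). The run-by-treatment difference was −0.89 ± 0.23 on the log2 scale, with an unadjusted p of 0.0069, and missed the threshold over all genes (adjusted p = 0.684). For this interaction edgeR called 0 of the 10 genes and 0 of all genes. At an unadjusted p under 0.05 it stood out for 3 members, PIF7, PAR1 and HBI1, and for 6.55% of all genes. DESeq2 called the interaction for 0 of the 10 and for 47 of all genes (0.214%).

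By point estimate, the difference between the runs was wider than that between the treatments for each of the 10 genes. For ATHB2 the log2 values were −0.39 ± 0.20 by run and −0.29 ± 0.18 by DEX. Those of PAR1 were 0.52 ± 0.18 and 0.43 ± 0.17, so for both genes the gap was smaller than the SEs. The run term passed for 9 of the 10 genes, all but ATHB2, as it did for 55.5% of all genes tested. Both second-run libraries lay below all 4 first-run libraries for 6 of the 10 genes (33.0% of all genes) and above them for PIF3, PIF7 and PAR1 (31.7% of all genes). PIF4 (0.321 of its level in the first run), PIF1 (0.345), PRE1 (0.402), HFR1 (0.472), HBI1 (0.623) and PIF5 (0.742) were lower in the second run, and PIF3 (1.83-fold), PIF7 (1.48-fold) and PAR1 (1.43-fold) were higher. LUX, ELF4 and ELF3, whose products together repress PIF4 and PIF5 transcription in the evening, were 5.20-fold, 18.6-fold and 1.22-fold higher in the second run. The root markers and TCP5 (3.85-fold higher in the second run) differed with the run too, as given above. The part of any of these in the run differences was not tested, and time of harvest, growth and sequencing cannot be told apart between the runs.

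**Figure D3:**
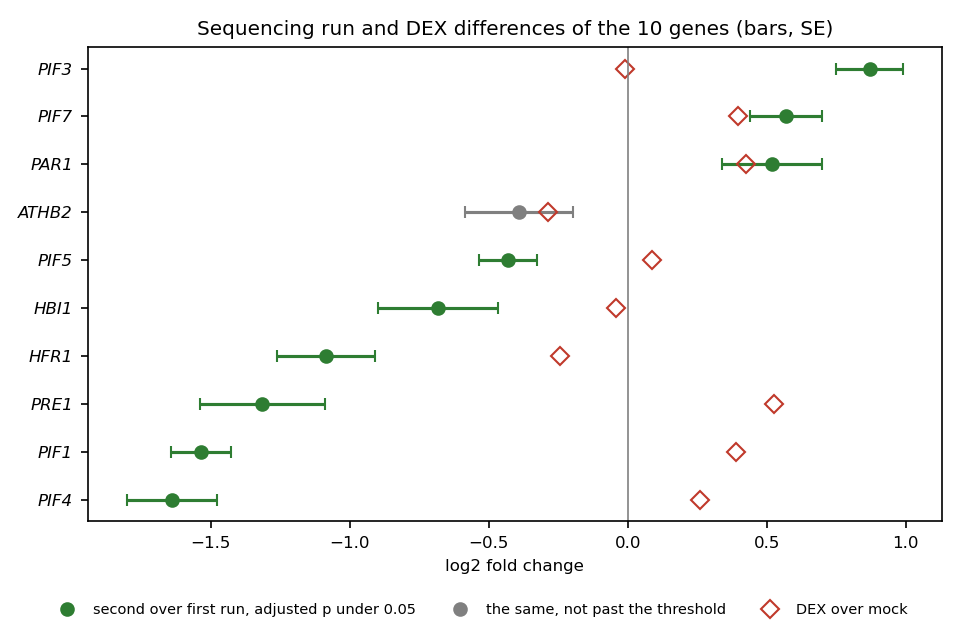
Log2 fold change of the second over the first run (circles, bars are SE; green where the adjusted p is under 0.05) beside that of DEX over mock (open diamonds). The run values span −1.64 for PIF4 to 0.87 for PIF3, and the DEX values span −0.29 for ATHB2 to 0.53 for PRE1.

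Per kilobase of gene length, the 4 libraries of the first run, with DEX and mock together, placed PIF5 highest at 62.5 ± 4.05 CPM per kilobase (SD, n = 4). HBI1 (46.0 ± 6.29), PIF4 (37.2 ± 7.94), PIF1 (27.4 ± 5.36) and PIF7 (21.8 ± 2.01) followed in CPM per kilobase. PIF5 did not overlap HBI1, whereas the neighbours from HBI1 to PIF7 overlapped each other. A gap without overlap separated PIF7 from PIF3 (9.42 ± 0.91) and the genes below it. ATHB2 (9.07 ± 2.11), PAR1 (6.64 ± 1.81), PRE1 (5.26 ± 1.12) and HFR1 (4.82 ± 0.825) each overlapped the next. In the second run PIF5 stayed highest, at 49.3 CPM per kilobase with DEX and 43.6 with mock. PIF7 was next with DEX (41.8, against 22.5 for HBI1), whereas with mock HBI1 was next (35.2, against 24.4 for PIF7). PIF4 was at a mean of 11.8 CPM per kilobase.

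The genes with the profile most like that of PIF4 over the 6 libraries were CVL1 (root mean square difference 0.031 on the centred log2 scale), UGP3 (0.092) and AT5G28910 (0.094). Those most like PIF1 were AT3G63480 (0.052), SSL2 (0.088) and PAP17 (0.113). The likeness was taken over 15613 genes. All 6 were lower in both second-run libraries than in any first-run library, which follows from their choice by likeness to PIF4 and PIF1. PAP17 alone of these 6 passed the DEX test (log2 fold change 0.56, adjusted p = 0.0265; 0.0558 with the replicate block). That call ended without DEX replicate 2 (0.108), mock replicate 1 (0.0802) or mock replicate 2 (0.137).

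Around the 10 genes, 77 further genes of light and shade growth signalling were listed, and 74 were tested. Of these 3 rose, 3 fell and 68 did not pass, beside 1.09% rises and 3.58% falls among all genes. The list median was −0.01 on the log2 scale. At an unadjusted p under 0.05 in edgeR, 12 of the 74 stood higher and 12 lower, against 7.19% and 11.8% of all genes. Photoreceptor genes held 4 of the higher and 0 of the lower, light signalling genes 0 and 5, and reported PIF or shade outputs 5 and 3.

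Of 7 photoreceptor genes PHYD rose and 6 did not pass (list median 0.23). PHYD, a close copy of phytochrome B, was at 28.1, 28.9 and 71.3 CPM in DEX replicates 1 to 3 and at 23.4, 21.7 and 49.7 CPM in mock replicates 1 to 3. DEX was higher in both runs without overlap, and the log2 fold change was 0.40 ± 0.09 (adjusted p = 0.0421; 0.0918 with the replicate block). PHYB, the main receptor of the shade signal, differed by less than its error (−0.01 ± 0.10 on the log2 scale; adjusted p = 0.965). The helix-loop-helix growth genes tested were PAR2, PRE2, PRE5, KDR, IBH1, IBL1 and AIF1 to AIF4, while PRE3 and PRE4 were not tested. Among these 10 genes, 5 other PIF-related bHLH genes and 7 HBI1-related bHLH genes, edgeR called 0, where it called 4.67% of all genes. At an unadjusted p under 0.05, 2 of these stood higher and 3 lower, against 7.19% and 11.8% of all genes.

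Among 9 other homeodomain-leucine zipper genes of the ATHB2 class, HAT2 rose and 8 did not pass. HAT2, which is known to be induced by auxin, was at 40.5, 35.3 and 39.1 CPM in DEX replicates 1 to 3. It was at 21.9, 24.3 and 21.2 CPM in mock replicates 1 to 3. All DEX libraries lay above all mock libraries and the runs were level. The log2 fold change was 0.77 ± 0.10 (1.70-fold; adjusted p = 0.00737), while that of ATHB2 was −0.29. The last 250 bases before the HAT2 start held a GTGGNCC match 179 bases and a PBE-box 113 bases upstream, both in capitals. They are shown because HAT2 is the ATHB2 relative that rose. GTGGNCC occurred in 4.61% and the PBE-box in 11.1% of all windows of that length. PIN3, which also rose as given below, held neither in its last 250 bases. Over 1000 bases PIN3 held 2 PBE-boxes and 0 GTGGNCC matches. Whether the matches bear on a rise was not tested. The HAT2 window is chr5:19218008-19218257, minus strand.
HAT2 upstream: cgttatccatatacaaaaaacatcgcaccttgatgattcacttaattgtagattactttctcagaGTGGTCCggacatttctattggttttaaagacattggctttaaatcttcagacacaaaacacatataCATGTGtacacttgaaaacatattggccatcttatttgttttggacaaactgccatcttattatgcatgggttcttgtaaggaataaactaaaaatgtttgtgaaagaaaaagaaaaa

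Of 19 light signalling genes BBX25 fell and 18 did not pass (list median 0.0013). BBX25, a B-box protein that restrains HY5, was at 36.3, 38.1 and 17.3 CPM with DEX and at 49.2, 55.0 and 22.8 CPM with mock, in replicates 1 to 3. DEX was lower in both runs without overlap, as for 17.8% of all genes tested. The log2 fold change was −0.46 ± 0.09 (adjusted p = 0.0256, and 0.0553 with the replicate block). BBX25 overlaps AT2G31390 on the opposite strand, and the counts do not separate strands.

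Of 17 tested genes reported as outputs of PIFs or shade, PIN3 rose and TAA1 and XTH15 fell (list median 0.26). PIN3, the auxin exporter that redirects auxin in shade, was at 202, 177 and 141 CPM in DEX replicates 1 to 3. It was at 116, 121 and 84.7 CPM in mock replicates 1 to 3, below every DEX library. PIN3 had a log2 fold change of 0.70 ± 0.09 (1.62-fold; adjusted p = 0.00802). TAA1, the aminotransferase through which shade raises auxin, was at 4.83, 3.96 and 3.58 CPM with DEX and at 7.21, 6.79 and 8.50 CPM with mock. All 3 DEX libraries were below all 3 mock libraries (log2 fold change −0.85 ± 0.17; adjusted p = 0.0307; 0.0571 with the replicate block). XTH15, a cell wall enzyme gene, was at 0.74, 0.39 and 9.47 CPM with DEX and at 1.04, 1.15 and 25.3 CPM with mock. Its level rests mainly on the second run (log2 fold change −1.17 ± 0.23; adjusted p = 0.0278; 0.0513 with the replicate block). In that run PYK10 and the sum of the other root markers were also lower with DEX, though not every root marker was. The part of root tissue in the fall of XTH15 was not tested. XTH15 overlaps AT4G14120. PIN3 and HAT2 kept their calls without any single library, whereas of the 6 libraries only DEX replicate 1 could be left out without ending the calls of PHYD, BBX25, TAA1 and XTH15. Without each other library the adjusted p lay between 0.0997 and 0.193 for PHYD, 0.0713 and 0.157 for BBX25, 0.0888 and 0.120 for TAA1, and 0.0524 and 0.223 for XTH15.

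**Figure D4:**
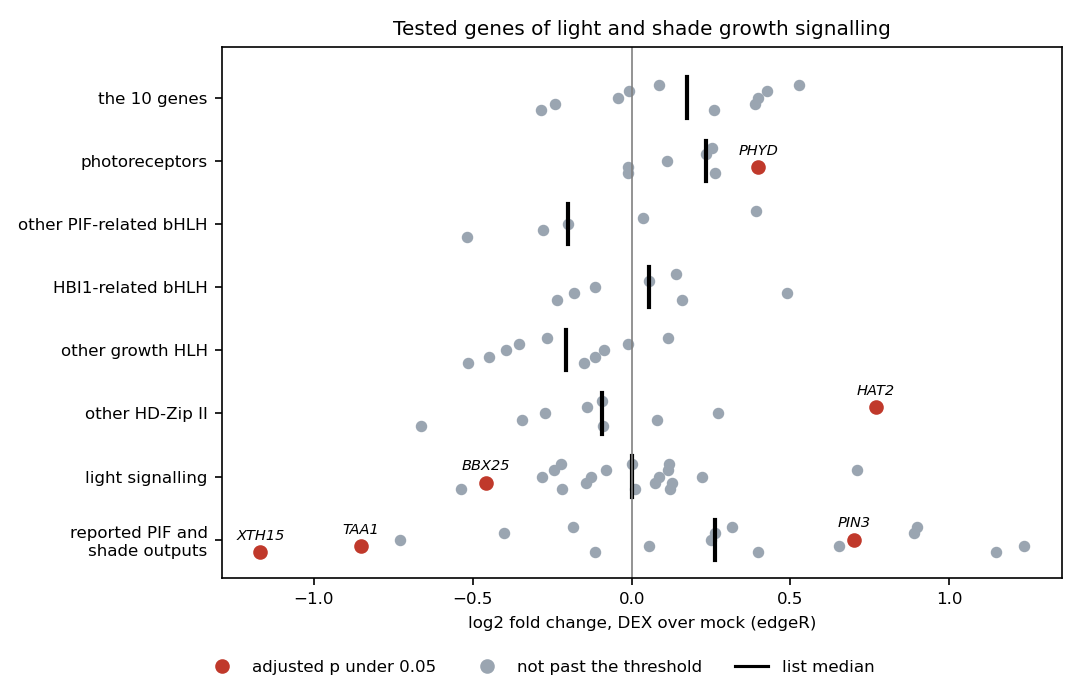
Log2 fold change of DEX over mock for each tested gene by list; red points passed the test over all genes and are named, grey points did not, and black lines are list medians. The 10 genes lie between −0.29 and 0.53 with 0 red points, and the named genes reach from −1.17 (XTH15) to 0.77 (HAT2).

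**Figure D5:**
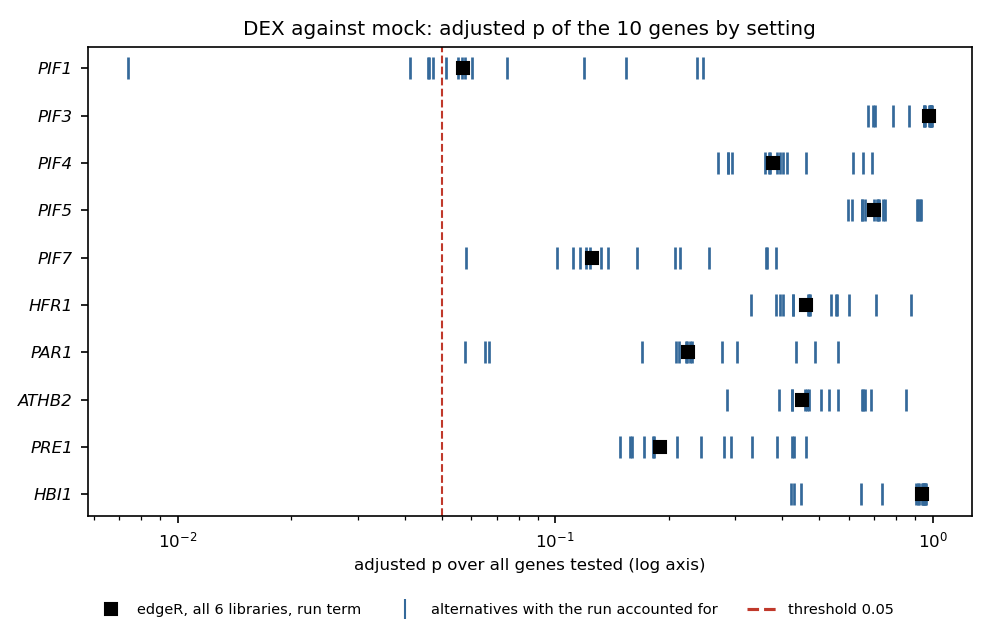
Adjusted p of each of the 10 genes on a log axis, for edgeR with all 6 libraries (squares) and for the alternatives other than the one with no run term (ticks); the dashed line is 0.05. Only PIF1 has ticks left of the line, with a lowest adjusted p of 0.00738, and PAR1 and PIF7 reach 0.0578 and 0.0580.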

How the data were processed

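Per the file headers, every file gave 1 library's raw counts of reads per gene: exon counts, intron counts and their total. The authors also deposited a gene length, another quantity beside the counts. The submitters' processing notes name STAR and DESeq2 with no version; counter, genome build and annotation were not given in the sources used here. Libraries came from a TruSeq RNA v2 kit, per the labels' protocols, which does not mark strand. Of exon counts from 1 to 20, 16.6% to 25.8% were odd, and whether both mates of a pair were counted was not tested.

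Testing used edgeR 4.0.16 (R 4.3.3) on exon counts of all 6 libraries: TMM scaling, filterByExpr (minimum count 10, minimum total 15), a robust quasi-likelihood F-test with run and treatment as terms, and Benjamini-Hochberg adjustment over 21934 genes at 0.05. SEs and intervals were derived from the F statistic. DESeq2 1.42.0 and limma-voom (limma 3.58.1) were alternatives, with other scalings, filters, terms and samples. The run term was tested after the data were seen. Names, overlaps and upstream sequence came from RefSeq TAIR10.1, which matched 37898 loci; proteins were not analysed here. Named genes are all 10 genes, TCP5, up to 4 genes past the test per list, and the 3 genes most like PIF4 and PIF1 (means of at least 5 CPM, prior count of 2). LUX, ELF4, ELF3, PHYB and PYK10 were named beside these after their values were seen. The genes and lists were chosen with earlier results of these data known.

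Deviations from the group mean correlated over genes between DEX and mock libraries of one number (r = 0.627, 0.607 and 0.879), so the replicate block is reported. DEX replicate 1 correlated more with mock replicate 2 (0.688), so the data show a pairing by run only. Between libraries the chi-square per degree of freedom was at least 28.5, so none duplicated another.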

Additional observations from a re-analysis of the deposited data

How the results depend on the processing

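The count of genes passing over the whole transcriptome, 1024, moved to 2065 with DESeq2, to 571 with the replicate number as a block and to 0 with no run term (edgeR, 798 at an unadjusted p under 0.05), and ranged from 279 to 1132 with 1 library left out. The count among the 10 genes, 0, became 1 (PIF1) with DESeq2, without a filter on low counts and in the first run alone, and ranged from 0 to 1 with 1 library left out, being 1 without either second-run library, when the first run alone informs the effect; it was 0 with the replicate block, with no run term and under the other settings. The interaction count among the 10 genes was 0 in all 7 alternatives. The near-zero estimate of PIF3 turned to 0.0050 with upper quartile scaling and 0.049 with no run term, and ranged from −0.14 to 0.11 with 1 library left out. That of HBI1 turned to 0.036 with no run term and 0.25 in the first run alone, and ranged from −0.20 to 0.26 with 1 library left out. The other 8 genes kept their direction in all 16 alternatives, none of which was the second run alone. In the single pair of that run, PIF4, HFR1 and PAR1 lay on the other side of 0 (log2 values −0.02, 0.01 and −0.09). Over the alternatives the log2 estimates ranged from 0.35 to 0.50 for PIF1, 0.08 to 0.40 for PIF4, 0.041 to 0.16 for PIF5 and 0.21 to 0.49 for PIF7. They ranged from −0.35 to −0.11 for HFR1, 0.30 to 0.69 for PAR1, −0.45 to −0.13 for ATHB2 and 0.41 to 0.68 for PRE1. The replicate block ended the calls of PHYD, BBX25, TAA1, XTH15 and PAP17 and left those of HAT2, PIN3 and PYK10; the alternatives for PYK10 were chosen after seeing the data. The causes were not tested. With 41 to 339 counts PRE1 is the gene most limited by depth, and the single pair of the second run has no replicate check of its own.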

Other observations

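Intron counts, which are not part of the test, gave a separate reading of 9 of the genes, PAR1 having 0 in every library, scaled to the same library sizes. PIF1 introns were at 3.78, 3.58 and 1.09 CPM in DEX replicates 1 to 3 and at 3.01, 3.02 and 0.80 CPM in mock replicates 1 to 3, so DEX was the higher in both runs, as in its exons. PIF4 introns were at 3.85, 2.54 and 0.27 CPM with DEX and at 2.49, 1.88 and 0.99 CPM with mock, higher with DEX in the first run and lower in the second. PIF7 introns were at 1.45, 1.62 and 3.04 CPM with DEX and at 1.83, 1.68 and 1.95 CPM with mock, so in the first run they lay below mock although the exons lay above it. HBI1 introns were at 4.33, 3.43 and 1.18 CPM with DEX and at 4.69, 3.82 and 2.94 CPM with mock, and the groups overlapped in the first run. PIF3 introns lay between 1.06 and 1.44 CPM with DEX and between 1.16 and 1.53 CPM with mock, and PIF5 introns at 2.62, 2.65 and 1.47 CPM with DEX and at 3.61, 2.45 and 1.63 CPM with mock, so the groups overlapped in the first run for both genes, as their exons did. HFR1 introns were at 0.10, 0.17 and 0.059 CPM with DEX and at 0.42, 0.14 and 0.26 CPM with mock, overlapping in the first run. ATHB2 introns were at 0.17, 0.17 and 0.18 CPM with DEX and at 0.44, 0.26 and 0.29 CPM with mock, every DEX library below every mock library, whereas its exons overlapped in the first run. PRE1 introns were at 0.80, 0.72 and 0.24 CPM with DEX and at 0.42, 0.47 and 0.16 CPM with mock, higher with DEX in both runs, as in its exons. The values of HFR1, ATHB2 and PRE1 rest on 2 to 48 intron counts a library, and the second-run value of PIF4 with DEX on 9. Those of PIF1 in the second run rest on 37 intron counts with DEX and 25 with mock. These differences were not tested.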
